A study of Arabidopsis thaliana with 4 samples.

Results

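The first steps of flavonoid synthesis were followed through 5 enzyme genes and 2 genes of the MYB factors that switch them on. The enzymes were chalcone synthase (CHS, AT5G13930), chalcone isomerase (CHI, AT3G55120), flavanone 3-hydroxylase (F3H, AT3G51240), flavonoid 3'-hydroxylase (F3'H, AT5G07990) and flavonol synthase (FLS1, AT5G08640), and the regulators were MYB12 (AT2G47460) and MYB111 (AT5G49330). They were chosen by locus from what is known of the pathway, but with earlier results of these data already known. All 7 were found among the 34261 genes on the array. All 7 passed the signal filter, which left 21729 genes for testing. Their 10 probes were well above background on every array.

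Chalcone synthase joins a coumaroyl unit from the phenylpropanoid pathway to malonyl units, and the product is closed by chalcone isomerase and oxidized by F3H and F3'H to dihydroflavonols. From there flavonol synthase makes the colorless, light-absorbing flavonols, while dihydroflavonol reductase and later enzymes lead to the red anthocyanins. In Arabidopsis seedlings MYB12 and MYB111 bind the promoters of the early genes with overlapping roles, MYB12 mainly in the root and MYB111 mainly in the cotyledons, and without the bHLH and WD40 partners that the anthocyanin factors need.

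Total RNA of whole seedlings was compared between wild-type Col-0 and sahy9-1, a salt-hypersensitive line in which a T-DNA interrupts an exon of the gene APUM23, which codes for a nucleolar Pumilio protein of rRNA processing. Seedlings grown for 10 days were kept for 1 day on 150 mM NaCl before the RNA was taken, so both genotypes had been salt-treated and all differences given here are between genotypes under salt. None of the arrays came from unstressed seedlings. The mutant was a single T-DNA line, and the study describes it as smaller and shorter-rooted than the wild type. Each genotype had 2 biological replicates, each labeled with Cy3 and hybridized to its own Agilent array. In whole seedlings, fewer cells that express a gene and less of its RNA per cell cannot be told apart.

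The 4 arrays lay on 1 slide scanned in 1 run, and 74.6% to 76.3% of their 43803 gene spots were well above background with 0 saturated. A level is the log2 of a spot's background-subtracted intensity minus the 75th percentile of its array, and a probe's level was not set against that of another gene's probe. APUM23 (AT1G72320) fell by 2.95 on the log2 scale in sahy9-1 (SE 0.119, limma adjusted P = 0.00098), from levels of -0.61 and -0.41 to -3.34 and -3.58, and where its probe lies relative to the insertion was not tested. All 6 shoot and all 8 root marker genes were well above background on every array, while 0 of 5 seed storage genes reached the signal filter.

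Among the 7 genes, 3 enzyme genes were higher in sahy9-1 and 1 regulator was lower. CHS rose 1.41-fold, CHI 1.57-fold and F3'H 2.24-fold, MYB12 fell 1.66-fold, and F3H, FLS1 and MYB111 did not pass the test. A gene passed when its limma P, adjusted over all 21729 genes by Benjamini-Hochberg, was 0.05 or less. By that rule 25.4% of all genes tested were higher in the mutant and 24% were lower, against 3 of 7 higher (42.9%) and 1 of 7 lower (14.3%) here, and in so small a list each gene is a large share. None of the 7 reached the study's 3-fold threshold, with 0 past it in limma and in the methods' t-test, adjusted or not, against 1.66% of all genes higher and 1.59% lower past both thresholds. Their median log2 fold change was 0.42, and that of all genes tested was -0.0041. The median of the 7 is the value of MYB111, which did not pass.

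**Figure D1:**
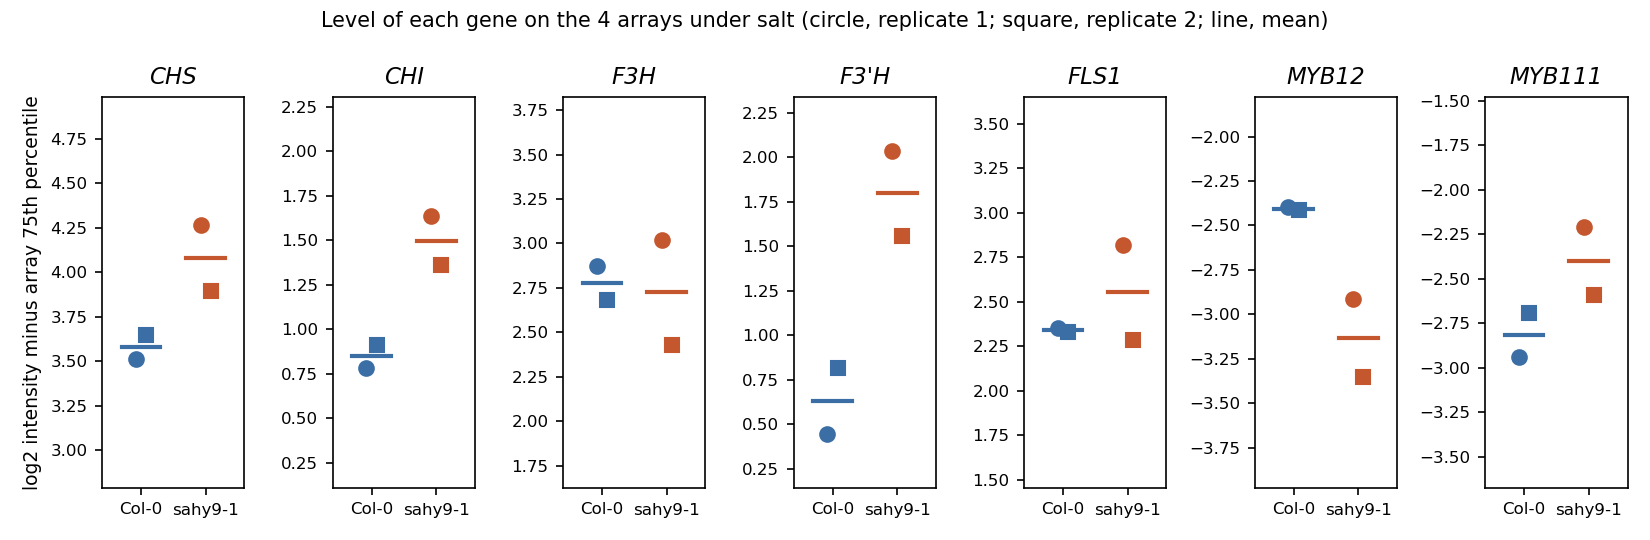
Level of each gene (log2 intensity minus the array's 75th percentile) on the 2 Col-0 arrays (blue) and the 2 sahy9-1 arrays (orange), with circles for replicate 1, squares for replicate 2 and lines for means; every panel spans the same number of log2 units. The genotypes are apart in 5 of the 7 panels and overlap for F3H and FLS1, and the orange circle lies above the orange square in all 7.

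CHS, which commits carbon to flavonoids, had levels of 3.51 and 3.65 in Col-0 and 4.26 and 3.89 in sahy9-1. Both mutant arrays were above both wild-type arrays. The means were 3.58 ± 0.097 and 4.08 ± 0.262 (SD, n = 2 each), a log2 fold change of 0.50 (SE 0.144, 95% interval 0.12 to 0.88, limma adjusted P = 0.044). This was the highest adjusted P of the 4 calls, and leaving out either Col-0 array or sahy9-1 replicate 1 ended it, with adjusted P up to 0.156. Its log2 fold change was 0.31 without sahy9-1 replicate 1 and 0.68 without sahy9-1 replicate 2.

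CHI, which closes the chalcone ring, had levels of 0.78 and 0.91 in Col-0 and 1.63 and 1.36 in sahy9-1. The groups did not overlap, and the gap between them (0.45) was larger than the difference between the arrays of either genotype. The log2 fold change was 0.65 (SE 0.117, 95% interval 0.34 to 0.96, limma adjusted P = 0.0124). The adjusted P was 0.0543 without Col-0 replicate 1 and 0.053 without sahy9-1 replicate 1.

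F3H, the dioxygenase that turns flavanones into dihydroflavonols, had levels of 2.88 and 2.68 in Col-0 and 3.02 and 2.43 in sahy9-1. The mutant arrays lay on both sides of the wild-type arrays. The log2 fold change was -0.053 (SE 0.215, 95% interval -0.62 to 0.52, limma adjusted P = 0.853), and a rise or a fall of up to about that size cannot be told from no change. A second probe of the gene gave 0.70 and 0.72 in Col-0 and 1.18 and 0.66 in sahy9-1, again with overlap, so that its difference of 0.20 has the other sign.

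F3'H, the cytochrome P450 that adds the hydroxyl group that distinguishes quercetin from kaempferol, differed most. Its levels were 0.45 and 0.82 in Col-0 and 2.04 and 1.56 in sahy9-1. The mutant arrays stood 0.742 above the nearest wild-type array. The log2 fold change was 1.17 (SE 0.209, 95% interval 0.61 to 1.72, limma adjusted P = 0.0124), and 6.3% of all genes tested changed by more. The other probes of F3'H gave differences of 1.24 and 1.43, each without overlap, the latter from a dim spot with intensities of 92.6 and 96.5 in Col-0 and 366.3 and 225.8 in sahy9-1. Without Col-0 replicate 1 the adjusted P of F3'H was 0.0508.

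FLS1, the main flavonol synthase, had levels of 2.36 and 2.33 in Col-0 and 2.82 and 2.29 in sahy9-1. The wild-type arrays were almost equal, while 1 mutant array lay above them and the other just below. The log2 fold change was 0.21 (SE 0.187, 95% interval -0.29 to 0.71, limma adjusted P = 0.391).

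MYB12, the flavonol activator, was the 1 gene of the 7 that was lower past the test. Its levels were -2.40 and -2.41 in Col-0 and -2.91 and -3.35 in sahy9-1. The wild-type arrays were nearly equal and both mutant arrays lay below them by at least 0.499. The log2 fold change was -0.73 (SE 0.158, 95% interval -1.15 to -0.31, limma adjusted P = 0.0207), and 7.62% of all genes tested had a lower value. Leaving out Col-0 replicate 1 or 2 raised the adjusted P to 0.0808 or 0.0673.

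MYB111, its close relative, had levels of -2.94 and -2.69 in Col-0 and -2.21 and -2.59 in sahy9-1. The mutant arrays were higher, by as little as 0.0983 between the nearest arrays of the genotypes. The log2 fold change was 0.42 (SE 0.164, 95% interval -0.017 to 0.85, limma adjusted P = 0.0957), which did not pass. Started from the median spot signal with normexp background correction, in place of the processed signal, the log2 fold change was -0.0052. Without Col-0 replicate 1 it was 0.29 and without sahy9-1 replicate 1 it was 0.22. MYB11, the third gene of this subgroup, had levels of -6.77, -6.47, -6.37 and -6.98 on the Col-0 and then the sahy9-1 arrays and did not reach the signal filter.

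**Figure D2:**
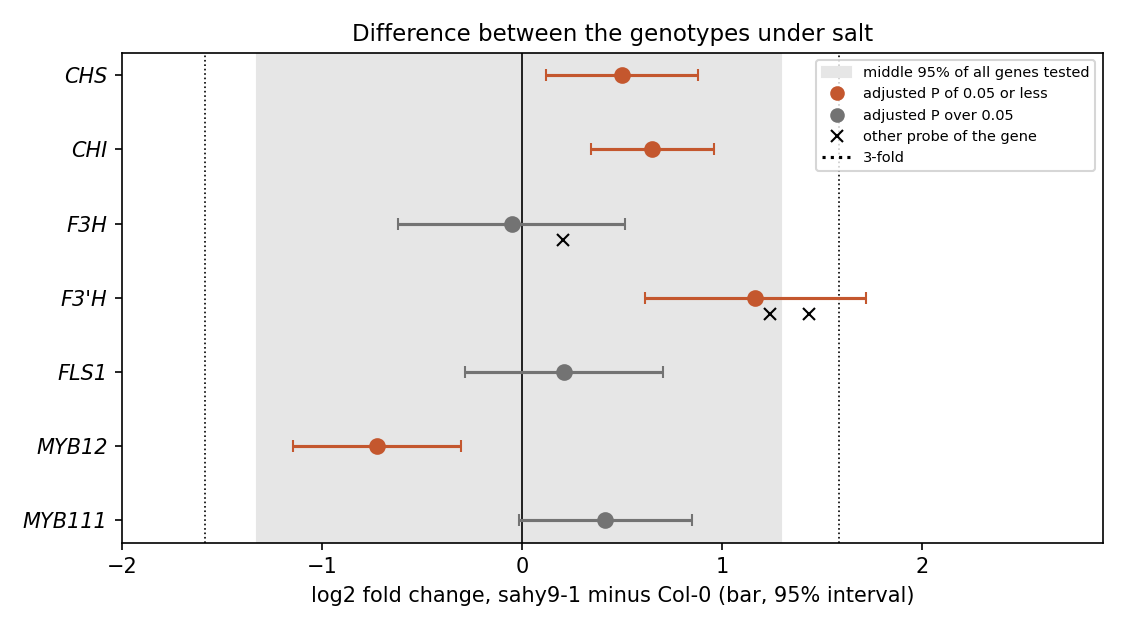
Log2 fold change of each gene, sahy9-1 minus Col-0, with its 95% interval (bars), the other probes of F3H and F3'H (crosses), the middle 95% of all genes tested (gray) and the 3-fold threshold (dotted). CHS, CHI, F3'H and MYB12 (orange) passed the adjusted P of 0.05, each gene's own value lies within the gray range, and the 3 probes of F3'H lie to the right of 1.

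In 5 of the 7 genes (71.4%) the genotypes did not overlap, which was the case for 80.3% of all genes tested. Between the mutant arrays, however, these genes differed more than most genes tested. Each of the 7 was higher on sahy9-1 replicate 1 than on replicate 2, by 0.27 for CHI to 0.59 for F3H with a median of 0.44. Over all genes tested the median size of that difference was 0.0744, and 55% were higher on replicate 1. The difference was larger in 1.76% of all genes than in F3H, in 3.18% than in MYB12 and in 8.16% than in CHI. The Col-0 arrays did not show it, since 3 of the 7 genes were higher on replicate 1 and 4 on replicate 2, with differences from -0.37 for F3'H to 0.19 for F3H. Of the other pathway lists, flavonol decoration had 5 of 6 tested genes higher on sahy9-1 replicate 1 (median 0.22), the early enzyme paralogs 4 of 5 (median 0.14) and the late anthocyanin branch 9 of 12 (median 0.13). The other regulators had 12 of 16 (median 0.080), the lignin branch 5 of 7 (median 0.083) and phenylpropanoid entry 6 of 9 (median 0.035), while the root markers had 4 of 8 (median 0.032) and the shoot markers 1 of 6 (median -0.044). Some of these lists were also uneven in Col-0. There flavonol decoration had 0 of 6 higher on replicate 1 (-0.97 to -0.035) and the late anthocyanin branch 3 of 12. The early enzyme paralogs had 4 of 5, the other regulators 10 of 16 and the lignin branch 3 of 7. Phenylpropanoid entry had 6 of 9, the root markers 5 of 8 and the shoot markers 2 of 6. This comparison was made after the values had been seen and carries no test, and whether the seedlings or the RNA of the replicates differed was not tested.

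**Figure D3:**
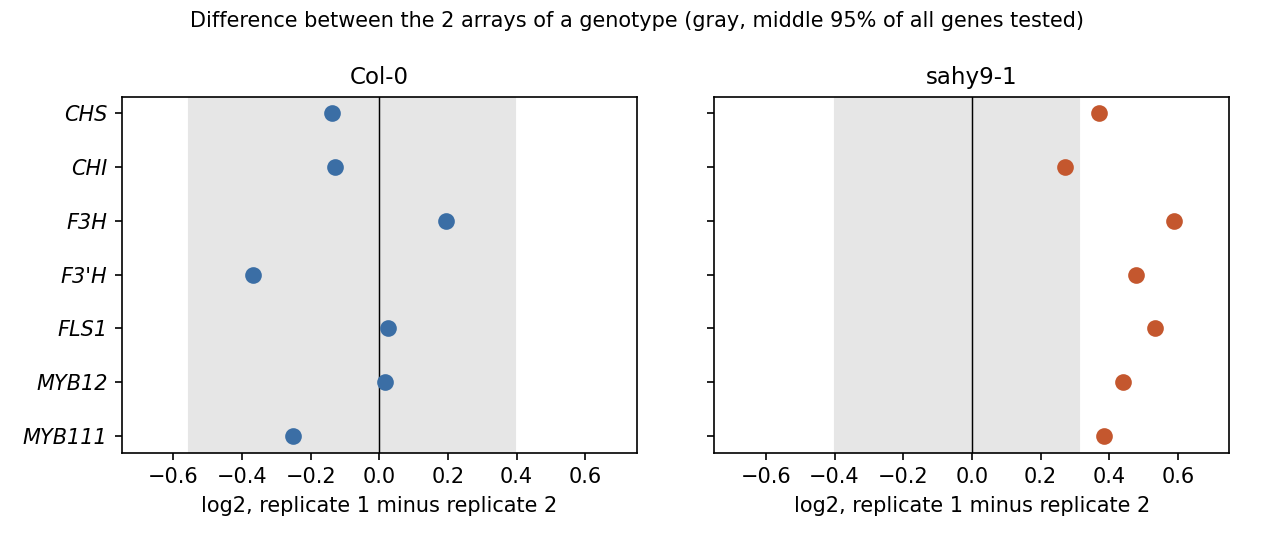
Replicate 1 minus replicate 2 (log2) for each gene in Col-0 (left) and sahy9-1 (right), with the middle 95% of all genes tested in gray. In Col-0 the genes fall on both sides of 0 within the gray range, and in sahy9-1 all 7 lie above 0 and 6 of them beyond 0.31, its upper end.

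The difference between 2 of these genes on the same array removes what both share on that array, and over the 8 pairs compared it had an SD of 0.00989 to 0.225 in sahy9-1, where single genes had 0.192 to 0.417. In Col-0 the SD of the pairs was 0.00456 to 0.399 and that of single genes 0.011 to 0.261, so the spread was not smaller there. Such a difference holds an unknown probe constant, so it was set to 0 at its Col-0 mean and only its change is given. F3'H relative to F3H stood at 1.16 and 1.27 on the mutant arrays and at -0.28 and 0.28 in Col-0. Relative to FLS1, which uses dihydroflavonols, F3'H stood at 0.93 and 0.98 in sahy9-1 and at -0.20 and 0.20 in Col-0. F3H relative to CHI, the enzyme before it, stood at -0.55 and -0.86 in sahy9-1 and at 0.16 and -0.16 in Col-0. In these 3 pairs F3'H and CHI were the genes that gained on the mutant arrays.

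MYB111 relative to MYB12 stood at 1.11 and 1.17 on the mutant arrays and at -0.13 and 0.13 in Col-0. CHS relative to MYB12 stood at 1.19 and 1.26 in sahy9-1. Against MYB111 instead, CHS was at 0.076 and 0.090 in sahy9-1 and at 0.057 and -0.057 in Col-0, the smallest change of the 8 pairs compared. The 8 pairs were chosen from 21 possible ones after the values had been seen, and each gave P = 0.333 in an exact two-sided permutation test, before and after adjustment over the 8. That is the smallest P that 2 arrays against 2 can give, so no pair can pass 0.05.

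**Figure D4:**
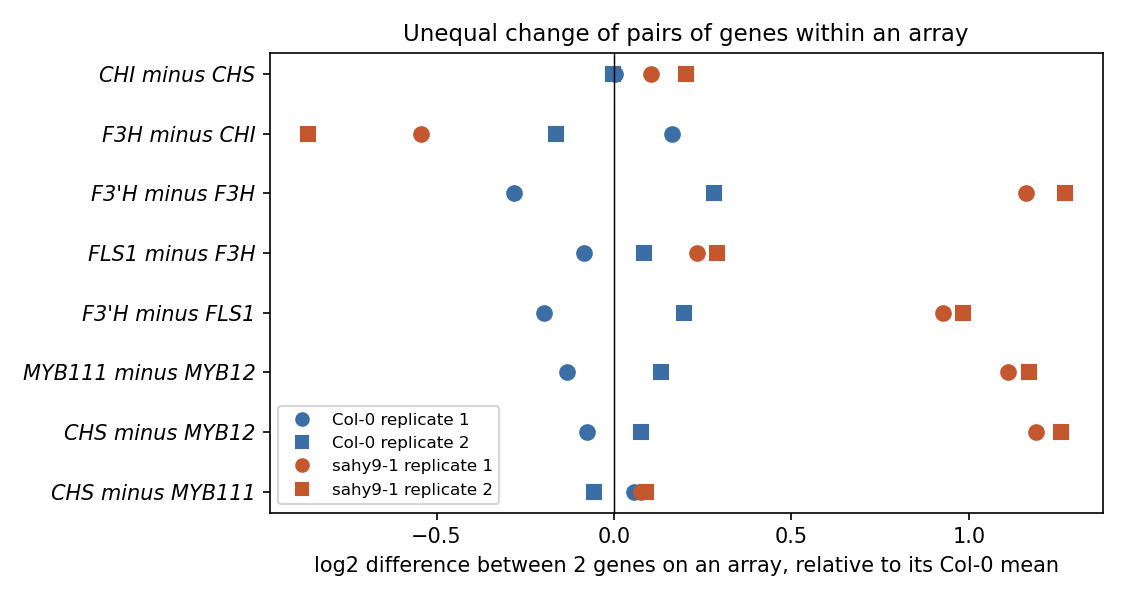
Log2 difference between 2 genes on the same array, relative to its Col-0 mean, for 8 pairs on the Col-0 (blue) and sahy9-1 (orange) arrays. The mutant arrays lie near 1.2 for F3'H minus F3H and CHS minus MYB12 and near 0 for CHS minus MYB111.

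Likeness was the Euclidean distance over the 4 arrays between log2 values set to 0 at each gene's Col-0 mean, so it compares changes and not levels. Most like CHS were AT2G17280 (0.077), AT2G25530 (0.09) and AT1G79770 (0.0908), with log2 fold changes of 0.54, 0.45 and 0.55. Among the 7 genes themselves MYB111 was nearest to CHS (0.143) and MYB12 farthest (1.74). The genes most like MYB12 were AT1G75550 (0.0639), the arabinogalactan peptide gene AGP41 (AT5G24105, 0.0694) and THIC (AT2G29630, 0.0821), an enzyme of thiamine synthesis, with log2 fold changes of -0.75, -0.76 and -0.75. These genes were picked for centered array values like those of CHS or MYB12, which fixes fold changes near theirs.

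No 2 of the 7 genes adjoin each other, and the tested genes next to them in the annotation had log2 fold changes from -0.37 to 0.66. Of these 14 neighbors 4 (28.6%) passed the adjusted P, against 49.4% of all genes tested. Both neighbors of F3'H were among them and higher in the mutant, AT5G07980 by 0.29 (limma adjusted P = 0.0493) and E13L3 (AT5G08000) by 0.66 (adjusted P = 0.00569). CAO, next to MYB12 and an enzyme of chlorophyll b synthesis, fell by 0.36 (limma adjusted P = 0.0129).

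Upstream, the phenylpropanoid entry genes (PAL, C4H and 4CL) that supply coumaroyl-CoA had a median of 0.21. Of 9 tested, 1 was higher, 2 were lower and 6 did not pass the test, against 25.4% higher and 24% lower of all genes. C4H, a single-copy hydroxylase, rose by 0.26 on the log2 scale (limma adjusted P = 0.025), and PAL4, one of the ammonia-lyases, fell by 0.55 (limma adjusted P = 0.0104). In the lignin branch, which draws on the same coumaroyl-CoA, 2 of 7 were higher and 2 lower, with a median of -0.095. These counts are near the 25.4% and 24% of all genes tested. There F5H, which makes syringyl units, rose by 0.50 (limma adjusted P = 0.00691), and the alcohol dehydrogenase CAD5 fell by 0.72 (limma adjusted P = 0.0247).

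The paralogs of the early enzymes split. Of 5 tested, 1 was higher and 2 lower (25.4% and 24% of all genes tested), with a median of 0.070. FLS5 (AT5G63600), a tandem relative of flavonol synthase, rose from 1.68 and 1.38 in Col-0 to 2.26 and 2.27 in sahy9-1 (log2 fold change 0.74, limma adjusted P = 0.00887). FLS2 (AT5G63580), in the same tandem array, fell from -1.77 and -2.06 to -3.29 and -3.43 (log2 fold change -1.44, limma adjusted P = 0.00315). Neither pair of groups overlapped. These paralogs are similar in sequence, and how far a probe also reads a relative was not tested.

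Of the genes that glycosylate or methylate flavonols or, as RHM1 does, make the rhamnose donor, 6 were tested, with a median of 0.071. In limma 0 were lower (0 at an unadjusted P of 0.05 as well) and 1 was higher, against 24% and 25.4% of all genes tested. The 1 was UGT73C6 (AT2G36790), a flavonol glucosyltransferase, with levels of -4.79 and -3.82 in Col-0 and -3.13 and -2.93 in sahy9-1 and a log2 fold change of 1.28 (limma adjusted P = 0.0331).

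The other regulators of flavonol genes, among them HY5, the BBX proteins, the UVR8 loop and MYB repressors, had 8 of 16 tested genes lower, 1 higher and 7 not past the test, against 24% of all genes lower and 25.4% higher, with a median of -0.26. BBX22, a B-box partner of HY5, fell by 0.78 (limma adjusted P = 0.00369). RUP1, which resets the UV-B receptor, fell by 0.52 (limma adjusted P = 0.00508). MYBL2, a repressor of anthocyanin genes, fell by 0.50 (limma adjusted P = 0.0103). BBX20 rose by 0.52 (limma adjusted P = 0.0082). The list holds activators and repressors alike, so its direction is no direction of the pathway. HY5 itself had a log2 fold change of -0.21 (limma adjusted P = 0.0842).

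In the late anthocyanin branch 3 of 12 tested genes were higher and 3 lower, with a median of 0.30. These counts are near the 25.4% and 24% of all genes tested. TT8 (1.13, limma adjusted P = 0.00379), LDOX (0.58, limma adjusted P = 0.0368) and GSTF12 (0.55, limma adjusted P = 0.0194) were higher by log2 fold change, while PAP1 fell by 0.79 (limma adjusted P = 0.0345) and PAP2 fell by 2.39 (limma adjusted P = 0.00608). MYB113 was at least 11.2-fold lower, as its probe was not well above background on the sahy9-1 arrays. Its limma adjusted P of 0.00353 belongs to the measured values, with mutant intensities of 5.416 and 11.34, and not to the bound. MYB113 and PAP2 reached the signal filter through Col-0 alone, the genotype in which they were higher. Probes of the closely similar MYB113, MYB114 and PAP2 may read each other. In the bound the dim arrays were set to the lowest signal well above background.

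**Figure D5:**
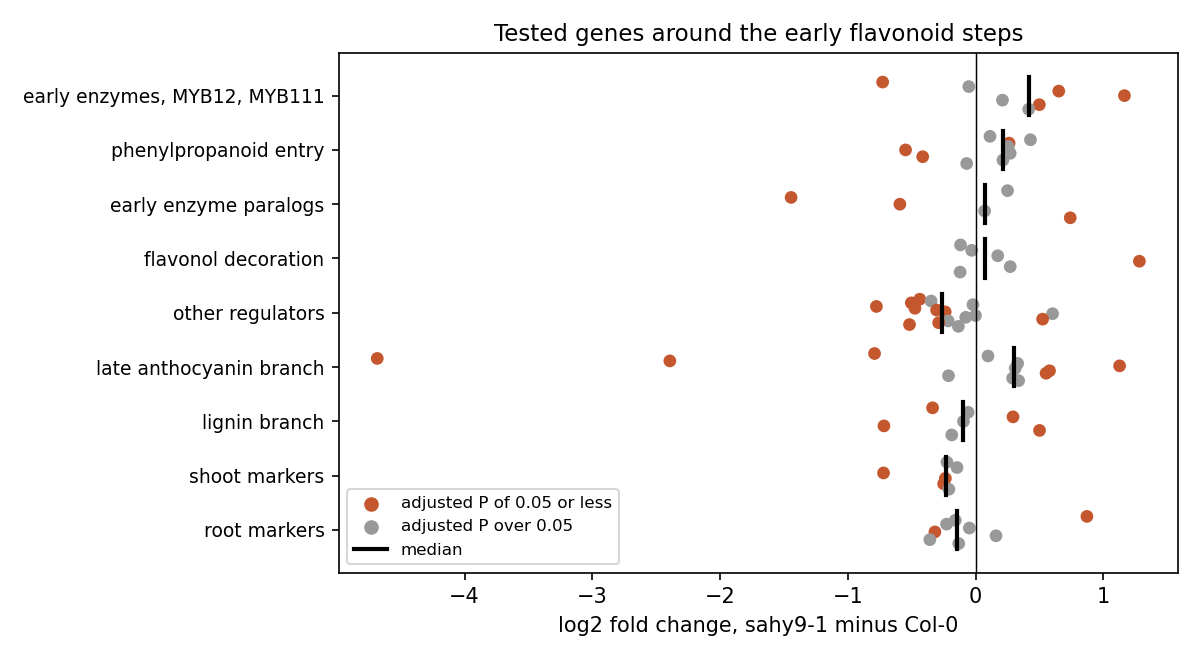
Log2 fold change, sahy9-1 minus Col-0, of every tested gene in each list, orange where the adjusted P was 0.05 or less, with the list's median as a black line. The early enzymes with MYB12 and MYB111 have the highest median of the 9 lists (0.42) and the other regulators the lowest (-0.26). The 0.42 is the value of MYB111, which did not pass the adjusted P. MYB113, at the far left, is plotted at its measured value, though its mutant level is only a bound.

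The summed level of the 6 shoot markers, such as Rubisco and light-harvesting genes, was 8.51 and 8.55 in Col-0 and 8.29 and 8.36 in sahy9-1, and 3 of 6 were lower and 0 higher in limma (none higher at an unadjusted level either, as all had negative values). LHCB2.1 fell most, by 0.72 (limma adjusted P = 0.00684). That of the 8 root markers was 5.72 and 5.78 in Col-0 and 5.48 and 5.47 in sahy9-1, with 1 higher (the nitrate transporter NRT2.1 by 0.87, limma adjusted P = 0.0124) and 1 lower (PYK10, which fell by 0.32, limma adjusted P = 0.0174). By the same test 24% of all genes were lower and 25.4% higher. PYK10 made up 89.3% to 93.2% of the root sum. The sums differed by -0.207 for shoot and -0.273 for root markers (log2, sahy9-1 minus Col-0), and the median log2 fold change of the markers was -0.23 and -0.15. Their part in these results was not tested. The summed seed storage genes were between -4.65 and -4.17 on all arrays. The cruciferin gene CRU1 and OLEO1 were well above background on every array, 2S1 and 2S3 on 1 array each, and the cruciferin gene CRU3 on none.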

How the data were processed

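Spot intensities had been extracted by the authors with Agilent Feature Extraction 10.7.1.1 (per the submitters' processing notes), with the background subtracted, and were deposited for 4 arrays. The deposited log2 table holds the same values scaled to each array's 75th percentile and set to the Col-0 mean, within 0.00068 for 43600 probes, and served as an alternative only. In R 4.3.3 control and outlier spots were left out, spots of a probe averaged, and the probe of highest mean signal taken for each gene. Genes reaching an intensity of 100 on each array of 1 genotype or both were tested, unpaired, with lmFit and eBayes in limma 3.58.1 and Benjamini-Hochberg adjustment. The arrays' number limits the precision: with 2 per genotype, P-values measure mostly the spread pooled over genes. Accessions were matched to loci of TAIR10.1 RefSeq for 25433 genes, and 8828 kept the name in the files. The code was tested on simulated data in which changed genes differed by more than 3-fold, so smaller changes were not covered. Figures were drawn with matplotlib 3.10.9.

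Named were all 7 genes, MYB11, APUM23, of each pathway list the genes past the adjusted P with the largest rise and fall (up to 3 each way in the lists of regulators and of the late branch), and the 3 genes nearest to CHS and to MYB12. HY5, the seed storage genes and the neighbors were named after their values were seen. The genes and lists were chosen with earlier results of these data known, and the comparisons of replicates, pairs and neighbors were added after the values were seen. Alternatives covered background correction, scaling, filter, outlier spots, probes per gene, variance model, replicate block, each array left out, the methods' t-test and a 2-fold threshold. Sequences of promoters and proteins were not used here.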

Additional observations from a re-analysis of the deposited data

How the results depend on the processing

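CHS, CHI, F3'H and MYB12 kept their direction in the 9 alternatives that move an estimate of any of the 7 genes. The 7 others leave every estimate as it is and change only the test. Leaving out 1 array could not have reversed CHS, CHI, F3'H or MYB12, since their genotypes do not overlap. Of the 9, the mean over probes left CHS, CHI and MYB12 as they were, since each has 1 probe. Median scaling and the deposited values moved CHS only from 0.4988 to 0.4985 and 0.4984. The alternative called normexp changed 2 things together, the median spot signal in place of the processed signal and the background correction. The 4 genes past the adjusted P became 0 with normexp (4 at an unadjusted P of 0.05 in limma), 0 with no signal filter (4 unadjusted), and 0 by the methods' t-test after Benjamini-Hochberg (1 unadjusted). Leaving out 1 array gave 0 to 4, with 0 without Col-0 replicate 1 (3 unadjusted), 2 without Col-0 replicate 2 (CHI and F3'H), 2 without sahy9-1 replicate 1 (F3'H and MYB12) and the same 4 without sahy9-1 replicate 2. Among genes well above background on all 4 arrays CHS was lost (0.0529). At 2-fold 1 of the 7 passed (F3'H). F3H changed sign with normexp (0.035), with the mean over its probes (0.076) and among arrays left out (-0.35 to 0.24), FLS1 did so among arrays left out (-0.056 to 0.48), and MYB111 with normexp (-0.0052). Which change in the normexp alternative moved the values was not tested.

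Of all genes, 705 passed both thresholds, 324 with normexp (75 of them higher, against 360 of 705), 15 by the methods' t-test after adjustment (616 unadjusted) and 1820 at 2-fold. Past the adjusted P alone were 10735, 2754 with normexp, 6572 with no filter, 93 by the methods' t-test (9550 unadjusted) and 4694 to 10071 with 1 array left out (4694 without sahy9-1 replicate 2, 4983 without sahy9-1 replicate 1). A lone array was assumed to vary like the other genotype. Deviations of same-numbered arrays correlated at 0.438 across genes, but the labels share only a number. With the replicate block 727 genes passed both thresholds and 11907 the adjusted P, and 4 of the 7 genes passed, so the block changed no call among them. A slide block could not be fitted, since all 4 arrays shared 1 slide.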
